A study of Mus musculus with 12 samples.

Results

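The genes described here are the nuclear-encoded subunits of respiratory complexes II, III, IV and V, chosen by the gene name stems Sdh, Uqcr, Cyc1, Cox4 to Cox8 and Atp5. Of 24711 named rows in the files of GC2 cells, 47 members were found, and of 36823 named rows in the files of spermatocytes, 49. They amount to 50 names, with 4 in complex II, 9 in complex III, 18 in complex IV, 18 in complex V and 1, Cox7a2l, that helps join complexes III and IV into supercomplexes. The name stems also took in Cox6c2, which GENCODE lists as a processed pseudogene, and Atp5s and Atp5sl, which are not core subunits of the synthase. Each name stood on 1 row, and 46 were in both sets of files.

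The study measured RNA in 12 mouse libraries of 4 groups with 3 replicates each. GC2 is a cultured mouse line of spermatocyte origin from a public collection, and its groups were unmodified control cells and cells with a knockdown of Phb. The other groups were spermatocytes of control mice and of mice with a conditional knockout of Phb, released from seminiferous tubules by enzymes and enriched by flow sorting on a DNA dye. The labels used here do not state how the knockdown was made, which Cre line drove the knockout, or the strain and age of the mice and whether any were pooled. The replicates are described as biological with no culture or animal named, so each p-value weighs a difference against a spread that may be technical.

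The respiratory chain sits in the inner mitochondrial membrane. Complex II passes electrons from succinate to ubiquinone, complex III passes them on to cytochrome c, complex IV gives them to oxygen, and complex V, the ATP synthase, uses the resulting proton gradient to make ATP. Phb encodes prohibitin, which forms ring assemblies with its partner Phb2 in the same membrane. Male germ cells are known for swapping some subunits for testis isoforms as they pass through meiosis, among them Cox6b2, Cox7b2 and Cox8c of complex IV and the cytochrome c variant Cyct.

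All values are FPKM, fragment numbers scaled to transcript length and to the size of the library. Rows below 1 FPKM in more than 3 of a comparison's 6 libraries were not tested, and a gene was called if the Benjamini-Hochberg adjusted p over all rows tested with limma on log2(FPKM + 1) was under 0.05, two-sided. Phb itself fell in both comparisons, from 54.3 ± 2.15 to 20.02 ± 2.31 FPKM in GC2 cells (SD, n = 3) and from 13.3 ± 0.634 to 11.6 ± 0.241 FPKM in spermatocytes. The libraries labelled knockout thus held Phb at 0.871 times the control level, against 0.368 times in the knockdown of GC2 cells, and the labels do not say which part of the gene was deleted. FPKM totals were 194949 to 206711 in GC2 libraries and 289707 to 297362 in spermatocyte libraries. Rows of the mitochondrial genome held 12.2% to 13.6% of the total in control spermatocytes and 17.1% to 19.5% in knockout spermatocytes, and 0.035% to 0.128% in GC2 libraries. Control GC2 cells held pachytene and diplotene spermatocyte markers at a summed 0.060 to 0.22 FPKM, with Ldhc and Hspa2 at 0. Of 5 fibroblast-like markers, the collagen genes Col1a1, Col1a2 and Col3a1 stood at 236, 54.4 and 2.83 FPKM. Thy1 and Pdgfrb were at 0.017 and 0.897 FPKM. In the knockdown libraries the spermatocyte marker sum was 0.16 to 4.99 FPKM, nearly all of it from Hspa2 at 4.64 and 4.68 FPKM in replicates 2 and 3.

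In spermatocytes the 3 testis isoforms of cytochrome c oxidase fell the furthest of all members. Cox8c (ENSMUSG00000043319.5, chromosome 12, 102899316 to 102900526, plus strand, GRCm38) was the most abundant member in control spermatocytes, at 831.44, 867.55 and 884.87 FPKM, and was at 11.9, 10.02 and 11.61 FPKM in the knockout. Every knockout library lay far below every control library. The fall was 77.1-fold on the FPKM scale, or -6.15 on the log2(FPKM + 1) scale (SE 0.065, limma adjusted p = 1.29e-08). Cox7b2 (ENSMUSG00000049387.10, chromosome 5, 71442824 to 71548205, minus strand) went from 205.59, 216.54 and 207.0 FPKM to 23.69, 24.92 and 29.22 FPKM. Its groups did not overlap either, and its log2 fold change was -2.97 (SE 0.077, limma adjusted p = 2.84e-07). Cox6b2 (ENSMUSG00000051811.14, chromosome 7, 4751792 to 4753094, minus strand) was on a row it shares with Fam71e2, which held 48.85, 48.37 and 48.05 FPKM in control and 4.85, 4.62 and 4.66 FPKM in knockout spermatocytes. The libraries of each group lay within a narrow band, and the log2 fold change was -3.11 (SE 0.029, limma adjusted p = 9.46e-09). The share of that value that belongs to Cox6b2 cannot be told from the row.

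The cell make-up of the spermatocyte libraries differed between the groups by their markers. All 10 pachytene and diplotene markers fell, with a summed level of 2508 to 2557 FPKM in control and 233.6 to 235.3 FPKM in knockout libraries. Much of that sum was Ldhc, which went from 1427.6 to 5.41 FPKM, while the synaptonemal complex genes Sycp1 and Sycp3 were at 0.846 and 0.772 times their control levels. All 8 spermatid markers fell, from 792.5 to 825.5 FPKM down to 6.82 to 9.25 FPKM. In knockout libraries 4 of the 10 spermatocyte and 4 of the 8 spermatid markers had means under 1 FPKM. These passed the filter only with their control libraries. Sertoli cell markers rose, 10 of 10, from 769 to 860 FPKM up to 3252 to 3412 FPKM, and Leydig cell markers rose, 6 of 6, from 19.6 to 20.3 FPKM up to 190.8 to 194.6 FPKM. All 4 endothelial, all 5 erythrocyte and all 4 tested of 6 macrophage and immune markers rose too, with sums of 11.8 to 12.07, 95.5 to 106.3 and 10.9 to 16.7 FPKM in control and 21.2 to 22.9, 183.8 to 188.7 and 24.3 to 27.96 FPKM in knockout libraries. Not every somatic list rose. All 3 tested of 5 fibroblast-like markers fell, with sums of 33.1 to 34.5 FPKM in control and 13.7 to 13.9 FPKM in knockout libraries. Of 8 spermatogonial markers, 2 rose and 5 fell, and their sum was 224.2 to 228.2 FPKM in control and 250.6 to 260.2 FPKM in knockout libraries. None of these markers was at 0 in all libraries of a group. Fewer cells of a type and less RNA per cell cannot be told apart in such bulk samples, and how far the make-up of the samples accounts for any change of a member was not tested.

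The widely expressed partner of each of these isoforms rose in the same libraries. Cox8a, the partner of Cox8c, rose from 77.85, 71.59 and 74.6 FPKM to 140.07, 140.99 and 131.33 FPKM, a log2 fold change of 0.87 (SE 0.043). Cox6b1, whose product caps the complex on the side where cytochrome c docks, rose from 93.76, 85.84 and 92.08 FPKM to 148.15, 144.47 and 141.75 FPKM, a log2 fold change of 0.67 (SE 0.040). Cox7b rose from 9.74, 11.57 and 10.71 FPKM to 18.88, 23.74 and 22.13 FPKM, a log2 fold change of 0.95 (SE 0.097). In none of the 3 partners did the groups overlap, and limma adjusted p-values were 4.92e-06, 1.11e-05 and 0.000166. Cox7b is the 1 member on the X chromosome, where 68.1% of tested rows were called higher and the median log2 fold change was 0.66, against 0.047 over all rows. With the median of each chromosome taken off, Cox7b was still called, with a log2 fold change of 0.29 in place of 0.95 (limma adjusted p = 0.0324).

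Within a library the ratio of an isoform to its partner does not depend on how that library was scaled. Cox8c was at 11.6 ± 0.767 times the level of Cox8a in control and at 0.081 ± 0.0092 times in knockout spermatocytes. The ratio of Cox7b2 to Cox7b went from 19.7 ± 1.24 to 1.21 ± 0.141. That of Cox6b2 to Cox6b1, with the whole row shared with Fam71e2 counted, went from 0.535 ± 0.024 to 0.033 ± 0.00048. In knockout libraries Cox7b2 had thus come down to about the level of its partner, while Cox8c and Cox6b2 were well under theirs. As log2 ratios of FPKM + 1, which do depend on scaling, the 3 pairs differed between groups by -7.02, -3.92 and -3.79. An exact two-sided permutation test gave p = 0.1 for each of 5 pairs, with p = 0.1 after adjustment over them, which is the smallest value that 3 against 3 libraries allow.

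**Figure D1:**
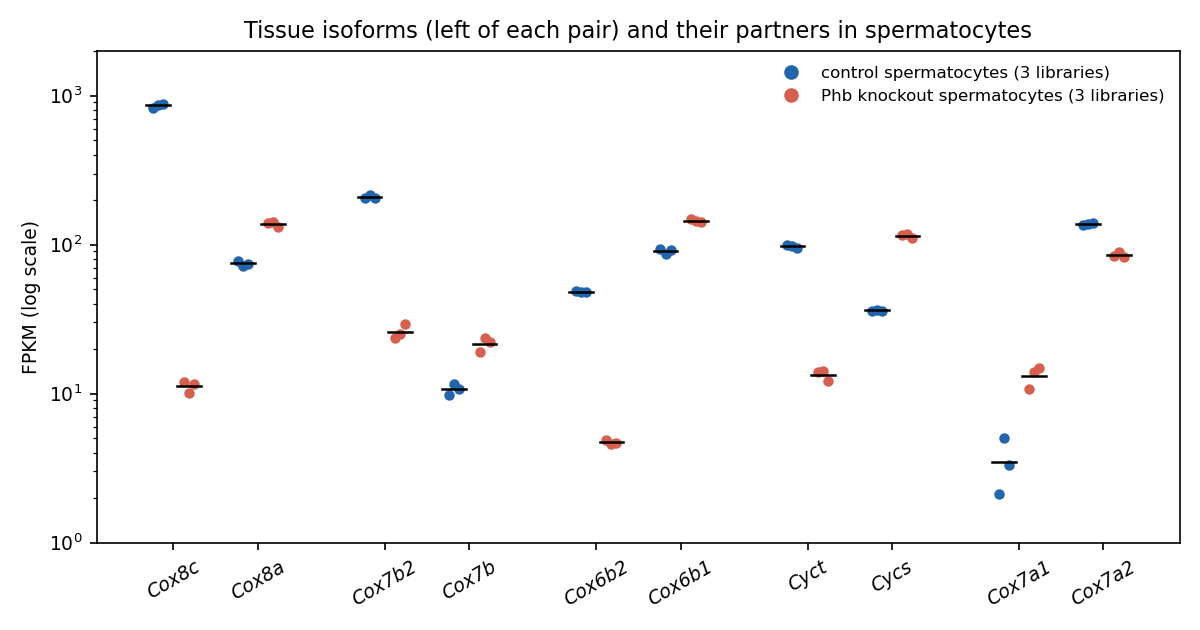
FPKM (log scale) of 5 tissue isoforms and their widely expressed partners in the 3 control and 3 knockout spermatocyte libraries. Points are libraries and lines are group means. Cox8c, Cox7b2, Cox6b2 and Cyct were lower in every knockout library, their partners were higher, and the pair of Cox7a1 and Cox7a2 moved the other way.

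The summed level of isoform and partner fell in some pairs and not in others. The sum of Cox6b1 and the row of Cox6b2 and Fam71e2 was 139 ± 4.32 FPKM in control and 149.5 ± 3.31 FPKM in knockout spermatocytes. It counts the whole shared row, so the level of the Cox6b pair itself is not known. The sum of Cox7b and Cox7b2 went from 220.4 ± 6.80 to 47.5 ± 4.498 FPKM, and the sum of Cox8a and Cox8c from 936 ± 25.2 to 149 ± 4.96 FPKM. These sums are levels of RNA, and those of the Cox7b and Cox8 pairs lay apart between groups by many times the spread of their replicates.

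Cytochrome c, the carrier between complexes III and IV and not itself a member, likewise had a lower testis form and a higher somatic form. The testis form Cyct went from 99.66, 98.58 and 94.68 FPKM to 13.98, 14.1 and 12.1 FPKM, a log2 fold change of -2.78 (limma adjusted p = 1.48e-07). The somatic form Cycs went from 35.85, 36.58 and 36.1 FPKM to 115.82, 118.05 and 109.94 FPKM, a log2 fold change of 1.64 (limma adjusted p = 9.22e-08). Control and knockout libraries did not overlap in either gene, and the ratio of Cyct to Cycs went from 2.70 ± 0.079 to 0.117 ± 0.0058. Their sum was 134 ± 2.64 FPKM in control and 128 ± 5.29 FPKM in knockout libraries.

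A pair from heart and muscle moved in the other direction. Cox7a1, the isoform of contractile tissue, rose from 2.12, 5.03 and 3.31 FPKM to 10.77, 13.88 and 14.89 FPKM (log2 fold change 1.70, SE 0.254, limma adjusted p = 0.00101). Cox7a2, its widely expressed partner, fell from 134.76, 138.08 and 138.74 FPKM to 84.31, 89.77 and 83.14 FPKM (log2 fold change -0.67, SE 0.035, limma adjusted p = 6.09e-06). Cox7a2 remained the more abundant of both in every library. The ratio of Cox7a1 to Cox7a2 went from 0.025 ± 0.010 to 0.154 ± 0.026. The other isoforms of lung, heart or muscle, Cox4i2, Cox6a2 and Cox8b, stayed between 0 and 1.27 FPKM in all spermatocyte libraries and were not tested.

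Peritubular myoid markers, where the contractile gene Acta2 stands, had 3 higher and 1 lower of 4 tested, with sums of 30.2 to 31.9 FPKM in control and 39.9 to 41.03 FPKM in knockout libraries. These values stand beside the rise of Cox7a1. So do the higher Sertoli, Leydig, endothelial, erythrocyte and macrophage markers and the lower fibroblast-like markers given above. Their part in that rise was not tested.

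The coding sequences of isoforms and partners differ at many bases. Over the aligned bases of the longest coding sequence in GENCODE M21, 62.5% were identical between Cox6b2 and Cox6b1, 71.9% between Cox7b2 and Cox7b, 66.2% between Cox7a1 and Cox7a2 and 77.4% between Cyct and Cycs. For Cox8c and Cox8a 65.4% were identical, over an alignment of 78 of the 216 and 207 coding bases.

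The 150 bases before the start sites of 2 testis isoforms are shown because both fell together and neither promoter held a match to the motifs searched. They come from RefSeq's promoters on GRCm38.p6 and are written in lower case, with matches in capitals. The promoters of the partners Cox6b1 and Cox7b held no match either, and no promoter was found for Cox8c.

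Cox7b2 (chr5:71548206-71548355, minus strand): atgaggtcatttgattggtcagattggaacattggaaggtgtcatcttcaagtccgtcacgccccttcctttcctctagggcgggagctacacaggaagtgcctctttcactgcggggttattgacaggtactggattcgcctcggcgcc

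Cox6b2 (chr7:4753095-4753244, minus strand): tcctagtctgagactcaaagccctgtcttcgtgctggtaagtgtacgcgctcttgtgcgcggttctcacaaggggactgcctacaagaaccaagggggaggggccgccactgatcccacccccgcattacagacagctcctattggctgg

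Promoters of 250 bases before to 50 bases after the start site were found for 34 of the 50 members. In these windows 3 patterns were searched on both strands, the nuclear respiratory factor 1 palindrome with a free centre (GCGC, any 2 bases, GCGC), its strict core with AT in the centre, which is a case of the first, and the ETS core CCGGAAGT, bound by GABP. The palindrome with a free centre was in 10 of the 34 members (29.4%) and in 6.23% of all 32851 promoters. The strict core was in 4 members (11.8%, Atp5g2, Atp5k, Cox6a1 and Uqcrc1) against 0.971% of promoters, and CCGGAAGT was in 4 members (11.8%, Atp5h, Cox8a, Uqcr11 and Uqcrh) against 3.89%. The shares of members count genes, some with more than 1 promoter, and those beside them count promoters. Counted by promoter, the 3 patterns were in 10, 4 and 4 of the 37 promoters of members. The shares describe letters in a window and no binding was measured.

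The other 6 members with the free-centre palindrome were Atp5c1, Atp5g3, Atp5h, Atp5o, Sdha and Sdhd. Windows of 5 members follow with the match in capitals, picked from those that hold this palindrome. Lacking it does not set both testis promoters apart, since most of the 34 members lacked it too. Sdha, the catalytic subunit of complex II, held 3 matches before its start site.

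Sdha (chr13:74350241-74350350, minus strand): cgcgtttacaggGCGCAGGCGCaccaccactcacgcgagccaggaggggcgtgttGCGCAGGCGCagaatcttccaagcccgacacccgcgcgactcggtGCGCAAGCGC

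Atp5g2 (chr15:102671055-102671114, minus strand): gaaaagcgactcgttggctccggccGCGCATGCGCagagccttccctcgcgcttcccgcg

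Cox6a1 (chr5:115349086-115349145, minus strand): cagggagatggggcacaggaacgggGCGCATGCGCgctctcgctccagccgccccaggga

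Atp5k (chr5:108434415-108434474, minus strand): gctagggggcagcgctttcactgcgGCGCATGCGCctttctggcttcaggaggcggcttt

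Atp5c1 (chr2:10080433-10080492, minus strand): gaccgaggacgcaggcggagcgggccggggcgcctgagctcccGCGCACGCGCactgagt

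The members with the pattern did not move in 1 direction in spermatocytes, where Sdha, Sdhd, Atp5c1, Atp5g2, Atp5g3, Atp5h and Cox6a1 rose and Uqcrc1, Atp5k and Atp5o fell. Of the factors that read these motifs, Nrf1 was at 2.05 FPKM in control and 2.303 FPKM in knockout spermatocytes and was not called (limma adjusted p = 0.0808), while Gabpa rose from 12.1 to 14.6 FPKM (limma adjusted p = 0.000705) and Gabpb1 from 4.08 to 5.49 FPKM (limma adjusted p = 0.000835).

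Over all members, 20 of the 46 tested in spermatocytes rose, 17 fell and 9 were not called. The called share, 80.4%, was close to the 79.4% of all 15957 rows tested, so the number of calls says nothing particular about these genes. By direction, 40.9% of all rows were called higher and 38.5% lower. The groups did not overlap in 20 members that were higher and 18 that were lower, where 81.8% of all rows did not overlap. The median log2 fold change of the members was 0.033, against 0.047 over all rows. The share of rows called higher depends on scaling, with 6533 higher and 6139 lower rows in the values as deposited and 8218 and 5041 after quantile normalization, which moved the median of all rows to 0.28. Median centring moved it to 0.21, removal of the mitochondrial rows to 0.10.

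The changes in complex II were small. Sdhd, an anchor in the membrane, was its most abundant subunit and rose from 66.48, 59.87 and 60.72 FPKM to 70.15, 73.42 and 71.04 FPKM (log2 fold change 0.20, limma adjusted p = 0.00781). Sdha, the flavoprotein, on a row shared with Pdcd6, was at 33.8 ± 1.148 FPKM in control and 37.02 ± 1.84 FPKM in knockout spermatocytes, a rise with a limma adjusted p of 0.0385. Sdhb, the iron-sulfur subunit, fell from 28.2 ± 0.646 to 25.7 ± 1.01 FPKM (limma adjusted p = 0.0188), and its sign turned to 0.031 under median centring (adjusted p = 0.496). Sdhc, the other anchor, was at 26.1 ± 0.499 and 27.1 ± 1.12 FPKM and was not called. The calls of Sdha and Sdhb rest on few libraries. That of Sdha was lost without control replicate 1 or 3 or knockout replicate 1 or 3 (limma adjusted p 0.0644 to 0.114), and that of Sdhb without control replicate 2 (limma adjusted p = 0.0634).

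Complex III split, with 3 members higher (33.3%), 5 lower (55.6%) and 1 not called, where 40.9% of all rows were higher and 38.5% lower. Whether the complex differs from other genes was not tested. Uqcrq, a small subunit next to cytochrome b, fell furthest, from 65.12, 66.03 and 64.0 FPKM to 32.38, 28.06 and 29.71 FPKM. Every knockout library was below every control library, and the log2 fold change was -1.09 (SE 0.053, limma adjusted p = 4.5e-06). Uqcrc1, a core protein on the matrix side, fell from 50.53, 45.74 and 46.1 FPKM to 27.49, 29.09 and 28.82 FPKM (log2 fold change -0.72, limma adjusted p = 1.87e-05). Its companion Uqcrc2 fell less, from 54.5 ± 0.615 to 47.95 ± 0.581 FPKM (log2 fold change -0.18, limma adjusted p = 0.000398), and Uqcrb from 85.2 ± 2.38 to 74.6 ± 0.673 FPKM (log2 fold change -0.19, limma adjusted p = 0.000882). Neither of these 2 was called under median centring (-0.022 and -0.029, adjusted p = 0.411 and 0.383).

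Uqcrfs1, the Rieske iron-sulfur protein, fell from 44.1 ± 0.806 to 39.5 ± 2.54 FPKM (log2 fold change -0.16, limma adjusted p = 0.0259). Under median centring its sign turned (0.0049), and the call did not survive leaving out any 1 control library, or knockout replicate 1 or 2 (limma adjusted p 0.0538 to 0.0815). The catalytic cytochrome c1, Cyc1, rose from 28.6 ± 1.203 to 32.6 ± 2.58 FPKM (limma adjusted p = 0.0377), a call lost without control replicate 2 or 3 or knockout replicate 1 or 3 (limma adjusted p 0.0598 to 0.113). Uqcrh, the hinge protein between cytochrome c1 and cytochrome c, rose from 95.7 ± 6.55 to 115.1 ± 6.36 FPKM, and Uqcr11 from 54.7 ± 3.27 to 62.7 ± 2.45 FPKM. Uqcr10, the most abundant subunit of the complex in control cells, was at 100.85, 97.24 and 101.9 FPKM in control and 98.03, 90.29 and 91.13 FPKM in knockout libraries and was not called (limma adjusted p = 0.0535).

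The other members of complex IV moved both ways too. Cox5a, which binds the early assembly module with Cox4i1, fell from 43.16, 45.07 and 48.28 FPKM to 27.85, 30.42 and 32.17 FPKM (log2 fold change -0.58, limma adjusted p = 0.000254). Cox4i1 held 154.03, 211.54 and 204.27 FPKM in control and 161.9, 116.72 and 91.65 FPKM in knockout libraries. Its groups overlapped, since knockout replicate 1 lay above control replicate 1. It was called lower (log2 fold change -0.64, SE 0.229, limma adjusted p = 0.0407), and the call was lost without control replicate 2 or 3 or knockout replicate 2 or 3 (limma adjusted p 0.0966 to 0.121) and under median centring or quantile normalization (adjusted p = 0.0953 and 0.0509).

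Cox6a1 rose from 121.4 ± 4.30 to 150.2 ± 4.12 FPKM (log2 fold change 0.31, limma adjusted p = 0.000305). Cox6c rose from 24.3 ± 0.133 to 30.7 ± 0.771 FPKM, while Cox6c2, a processed pseudogene on chromosome 12, fell from 16.1 ± 0.428 to 11.7 ± 0.861 FPKM (log2 fold change -0.43, limma adjusted p = 0.000533). How the reads of such a copy and of Cox6c were split is not known, so both values are uncertain. Cox7c fell from 102.2 ± 1.69 to 93.97 ± 2.59 FPKM (limma adjusted p = 0.00866), and its sign turned under median centring (0.040) and quantile normalization (0.025). Cox5b, the zinc-binding subunit, was at 48.8 ± 0.191 and 46.5 ± 2.44 FPKM and was not called. Cox7a2l ranged from 39.48 to 61.35 FPKM in control and from 53.03 to 85.42 FPKM in knockout libraries and was not called.

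Of 17 members of the ATP synthase 9 were higher (52.9%), 3 lower (17.6%) and 5 not called, where 40.9% of all rows were higher and 38.5% lower. Whether the complex differs from other genes in this was not tested. The 3 genes for the c subunit, which forms the proton-driven ring, encode the same mature protein and all rose. Atp5g2, on a row shared with the microRNA gene Mir688, rose from 34.69, 31.06 and 33.94 FPKM to 68.68, 67.27 and 66.44 FPKM (log2 fold change 1.00, SE 0.045, limma adjusted p = 3.2e-06). Atp5g3 rose from 36.62, 36.48 and 37.03 FPKM to 65.99, 71.9 and 70.13 FPKM (log2 fold change 0.90, limma adjusted p = 1.89e-06). Atp5g1, the lowest of the 3, rose from 9.47, 7.09 and 9.36 FPKM to 13.54, 11.98 and 12.13 FPKM (log2 fold change 0.50, limma adjusted p = 0.00679). No control library of these genes reached a knockout library. Their coding sequences were 72.6% to 78.7% identical over the aligned bases.

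In the catalytic head of the synthase, the central stalk subunit gamma, Atp5c1, rose most, from 56.49, 59.55 and 55.36 FPKM to 97.35, 82.66 and 94.67 FPKM (log2 fold change 0.67, limma adjusted p = 0.000153). Subunit beta, Atp5b, was the most abundant gene of the complex and rose from 144.5 ± 2.29 to 165.3 ± 3.29 FPKM, and subunit alpha, Atp5a1, from 124.2 ± 1.59 to 147.3 ± 1.81 FPKM, with log2 fold changes of 0.19 and 0.24. Subunits delta and epsilon, Atp5d and Atp5e, were not called, at 37.9 ± 5.00 and 32.4 ± 2.03 FPKM for the first and 45.9 ± 1.27 and 43.1 ± 1.26 FPKM for the second.

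Among the membrane and stalk subunits Atp5l rose from 9.48 ± 0.188 to 13.8 ± 0.584 FPKM and Atp5j2 from 22.04 ± 2.03 to 28.9 ± 1.54 FPKM, with log2 fold changes of 0.49 and 0.38. Atp5h rose from 50.7 ± 3.25 to 57.4 ± 1.80 FPKM, a call lost without knockout replicate 2 (limma adjusted p = 0.0645). Atp5o, the subunit that ties the head to the outer stalk, on a row shared with Donson, fell from 39.48, 40.43 and 35.97 FPKM to 26.73, 27.03 and 26.47 FPKM (log2 fold change -0.51, limma adjusted p = 9.41e-05). Atp5k fell from 95.4 ± 4.26 to 81.6 ± 4.91 FPKM (log2 fold change -0.22, limma adjusted p = 0.00928), a call lost under median centring (-0.063, adjusted p = 0.32) and quantile normalization (-0.12, adjusted p = 0.0745).

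Atp5s, also known as Dmac2l and a loosely attached factor rather than a core subunit, fell from 10.54, 11.69 and 9.57 FPKM to 4.78, 4.57 and 5.76 FPKM (log2 fold change -0.94, limma adjusted p = 0.000189). Its groups did not overlap. Atp5f1 and Atp5j, of the outer stalk, and Atp5mpl were not called, with 33.5 ± 2.48 and 33.96 ± 4.54 FPKM for the first, 24.98 ± 1.06 and 21.8 ± 4.19 FPKM for the second and 38.2 ± 1.82 and 42.5 ± 4.66 FPKM for the third. Under median centring Atp5mpl was called higher (0.31, adjusted p = 0.0123).

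Summed over its members, complex IV carried most of the change in level. The 18 rows of complex IV summed to 1985 ± 57.3 FPKM in control and 933.0 ± 39.6 FPKM in knockout spermatocytes, a ratio of 0.47. Without the 3 testis isoforms the sums were 866 ± 28.0 and 891 ± 42.5 FPKM, a ratio of 1.03 that lay within the spread of the libraries. The sums were 150.4 ± 2.05 and 161.3 ± 2.05 FPKM for complex II, 575.3 ± 4.32 and 524.1 ± 9.56 FPKM for complex III and 812 ± 8.65 and 941 ± 10.3 FPKM for complex V. In complexes II, III and V the sums of the groups did not overlap. With the mitochondrial rows removed and the rest rescaled, the ratio of complex V was 1.22 in place of 1.16.

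**Figure D2:**
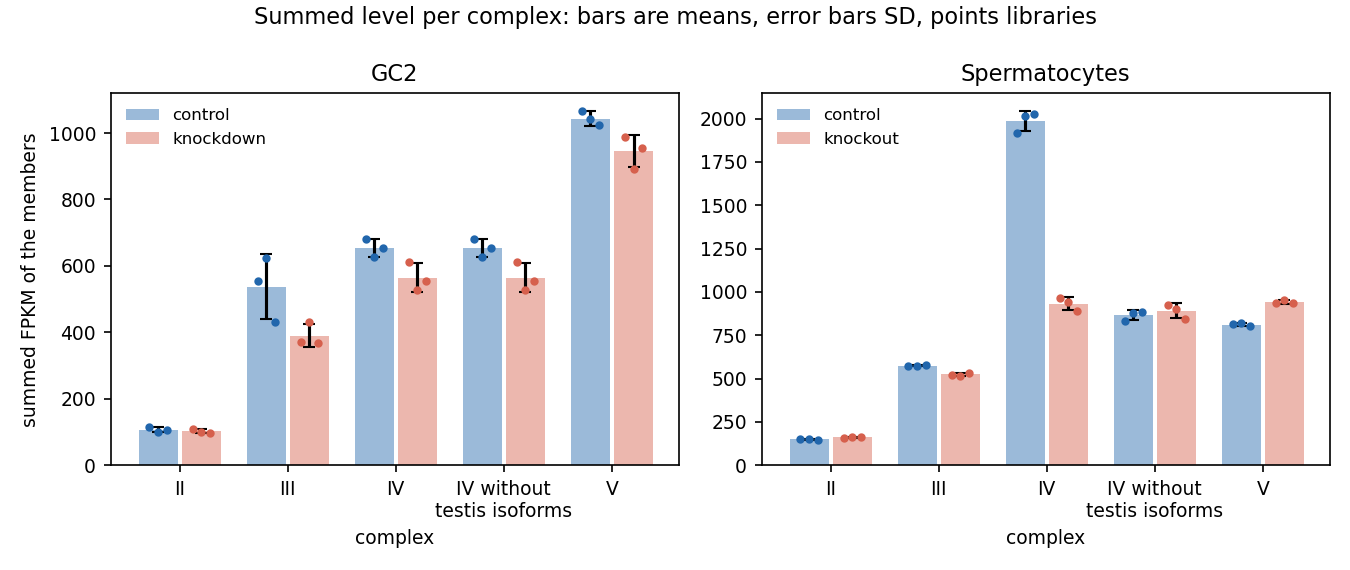
Summed FPKM of the members of each complex in GC2 cells (left) and spermatocytes (right). Bars are means of 3 libraries, error bars are SD and points are libraries. Complex IV fell from 1985 to 933.0 FPKM in spermatocytes, and without the testis isoforms it was 866 and 891 FPKM.

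In GC2 cells no testis isoform was high enough to be tested, and no member was called higher by limma after the knockdown. At an unadjusted p under 0.05, 1 member, Sdhb, was higher and 14 were lower. Of 41 members tested 14 fell, which is 34.1%, against 13.9% of all 10791 rows called lower, 10.7% called higher and 24.5% called in either direction. The groups did not overlap in those 14 and in 2 that were higher, while 44.9% of all rows did not overlap. The remaining 27 were not called. The median log2 fold change of the members was -0.15, against -0.038 over all rows. With each library rescaled to 1 total, 1514 rows were higher and 1117 lower in place of 1153 and 1496, and 1 member, Sdhb, was then called higher (log2 fold change 0.27, limma adjusted p = 0.0264). Members called lower were then 10 in place of 14, as Uqcrc2, Uqcrfs1, Uqcrb and Cox6c lost the call (limma adjusted p 0.0522 to 0.161). The same 4 lost it under median centring, and Uqcrc2, Uqcrb and Cox6c under quantile normalization (adjusted p 0.0512 to 0.0706 over both). Cox6b2, Cox7b2, Cox4i2, Cox6a2, Cox7a1 and Cox8b were at or under 1.16 FPKM in every GC2 library and were not tested, Cyct was at or under 0.09 FPKM, and Cox8c had no row.

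Complex III held the most calls in GC2 cells, with 6 of its 9 members lower (66.7%, against 13.9% of all rows). Whether any complex differs from other genes in this was not tested. Cyc1 fell from 93.44, 97.59 and 96.07 FPKM to 67.63, 69.13 and 68.33 FPKM, with both groups in narrow bands (log2 fold change -0.48, SE 0.037, limma adjusted p = 0.00106). Uqcrq fell from 48.12, 58.06 and 50.54 FPKM to 29.33, 34.74 and 36.53 FPKM (log2 fold change -0.63, limma adjusted p = 0.0145). Uqcrc1 fell from 26.85, 27.92 and 27.94 FPKM to 21.72, 21.49 and 20.19 FPKM (log2 fold change -0.37, limma adjusted p = 0.00555). None of these 3 had a knockdown library within the range of the control libraries. Uqcrfs1 was at 85.1 ± 3.55 and 70.4 ± 2.97 FPKM, Uqcrc2 at 60.2 ± 1.71 and 51.2 ± 2.95 FPKM, and Uqcrb, on a row shared with Mterf3, at 21.4 ± 1.86 and 16.6 ± 0.902 FPKM. These last falls had limma adjusted p-values of 0.0197, 0.0376 and 0.0315. Uqcrh, at 76.96 ± 23.98 and 75.2 ± 9.4 FPKM, and Uqcr11, at 34.7 ± 4.54 and 32.7 ± 4.38 FPKM, were not called.

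Complex IV had 3 members lower of 10 tested. Cox5b fell from 59.94, 61.15 and 63.25 FPKM to 46.66, 40.39 and 44.52 FPKM (log2 fold change -0.48, limma adjusted p = 0.00611), and Cox7a2 from 92.01, 89.61 and 91.41 FPKM to 74.2, 68.2 and 65.91 FPKM (log2 fold change -0.39, limma adjusted p = 0.00709). Cox6c fell from 51.8 ± 2.95 to 40.6 ± 3.72 FPKM (limma adjusted p = 0.0343). Control and knockdown libraries of these 3 genes did not overlap. Cox4i1, at 108.3 ± 9.71 and 114.8 ± 9.23 FPKM, and Cox6b1, on a row shared with Upk1a, at 64.2 ± 2.48 and 69.2 ± 6.29 FPKM, were not called, nor was Cox6a1, on a row shared with Gatc, at 39.9 ± 3.54 and 36.5 ± 3.81 FPKM. Cox7c, at 110.5 ± 12.2 and 94.5 ± 14.7 FPKM, was not called either. Cox5a, at 19.8 ± 2.70 and 19.5 ± 4.11 FPKM, and Cox7b, at 76.2 ± 2.2 and 69.4 ± 12.2 FPKM, were not called.

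In the ATP synthase 4 of 17 members fell (23.5%, against 13.9% of all rows), including 2 of the 3 c subunit genes that rose in spermatocytes. Atp5g1 fell from 11.82, 15.66 and 14.33 FPKM to 8.51, 9.39 and 9.1 FPKM (log2 fold change -0.57, limma adjusted p = 0.018), and Atp5g2 from 9.88, 10.99 and 12.26 FPKM to 7.52, 7.04 and 7.49 FPKM (log2 fold change -0.52, limma adjusted p = 0.011). Atp5g3, the most abundant c subunit gene in the line, was at 73.3 ± 4.52 and 59.3 ± 10.1 FPKM and was not called. Atp5c1 fell from 112.47, 101.03 and 101.85 FPKM to 88.65, 79.29 and 84.9 FPKM (log2 fold change -0.32, limma adjusted p = 0.0244). Atp5f1, subunit b of the outer stalk, fell from 48.2 ± 0.692 to 40.7 ± 0.790 FPKM (log2 fold change -0.24, limma adjusted p = 0.0108). Atp5b, at 267.3 ± 15.2 and 253.2 ± 4.43 FPKM, was the most abundant member of all in GC2 cells and was not called. The other 11 members were not called either. Atp5a1 was at 162.2 ± 11.4 and 145.1 ± 10.2 FPKM and Atp5h at 125.1 ± 9.9 and 113.7 ± 5.65 FPKM. Control and knockdown means were 60.3 and 59.4 FPKM for Atp5k, 38.2 and 40.6 FPKM for Atp5j2, 32.9 and 32.3 FPKM for Atp5o on its row shared with Donson, and 31.03 and 35.2 FPKM for Atp5j. They were 28.4 and 20.6 FPKM for Atp5d, 27.9 and 26.3 FPKM for Atp5e and 14.7 and 13.3 FPKM for Atp5l. Atp5s was at 1.57 ± 0.37 and 2.1 ± 0.352 FPKM, and Atp5sl, also known as Dmac2 and an assembly factor of complex I, at 2.15 ± 0.535 and 2.25 ± 0.605 FPKM.

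In complex II, Sdha fell from 46.78, 39.92 and 46.11 FPKM to 35.71, 31.16 and 32.37 FPKM (log2 fold change -0.41, limma adjusted p = 0.0244). The other 3 subunits were not called, with 33.0 ± 1.17 and 37.9 ± 2.50 FPKM for Sdhb, 19.1 ± 0.850 and 18.6 ± 0.875 FPKM for Sdhc and 10.8 ± 3.32 and 12.6 ± 1.28 FPKM for Sdhd.

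The calls in GC2 cells differ in how firmly they hold. Atp5f1, Atp5g2, Cox5b, Cox7a2, Cyc1, Uqcrc1 and Uqcrq stayed called with any 1 library left out, and the other 7 did not. Cox6c, Uqcrb and Atp5c1 lost the call when any 1 control library was left out, or knockdown replicate 2 or 3, with limma adjusted p-values of 0.0514 to 0.105 among them. Sdha lost it without control replicate 1 or 3 or knockdown replicate 2 or 3 (0.0712 to 0.0818), Atp5g1 without control replicate 3 or any 1 of the knockdown libraries (0.0515 to 0.0647), and Uqcrfs1 without control replicate 1 or 3 or knockdown replicate 3 (0.0558 to 0.0675). Uqcrc2 lost it without any 1 of the 6 libraries (0.0503 to 0.114). The number of members called lower was 7 to 12 over these removals, and it was 7 without control replicate 3 or without knockdown replicate 3 and 8 without control replicate 1 or without knockdown replicate 2.

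The share of rows called lower in GC2 cells differed between chromosomes. All 3 tested members on chromosome 15, Cyc1, Cox6c and Atp5g2, fell, and 22.9% of the 420 tested rows there were called lower with a median log2 fold change of -0.18. On chromosome 9, where 2 of 5 tested members (Uqcrc1 and Cox7a2) fell, 21.4% of rows were called lower. On chromosome 13, where 3 of 4 fell, the share was 16.5%, and on chromosome 19, where Cox8a was not called, 22.0%. On chromosome 18, where Atp5a1 was not called, it was 5.32%. Whether the chromosome bears on any call was not tested. With the median of each chromosome taken off, 9 members were called lower. They were 8 of the 14, Cyc1 and Atp5g2 among them, and Atp5a1 as a new call (-0.34, limma adjusted p = 0.0313). The calls of Cox6c (adjusted p = 0.218), Atp5c1, Uqcrc2, Uqcrfs1, Uqcrb and Sdha were lost (0.0535 to 0.0985 for these last 5).

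A few members had replicates far apart in GC2 cells. Uqcr10 held 89.53, 158.81 and 1.59 FPKM in control and 1.37, 62.7 and 0.34 FPKM in knockdown libraries. Cox8a held 37.21, 3.86 and 45.18 FPKM against 3.32, 12.66 and 1.22 FPKM, and Cox7a2l 30.45, 103.65 and 36.36 FPKM against 98.52, 91.09 and 28.73 FPKM. The groups overlapped in all 3 genes. Pooled SDs on the log2 scale were 3.12, 1.58 and 0.957, which put these genes at the 99.3, 97.1 and 95.2 percentiles of the 3845 named rows with a mean of at least 10 FPKM. In spermatocytes the pooled SDs of Uqcr10 and Cox8a were 0.052 and 0.058, while that of Cox7a2l was 0.365, at the 96.3 percentile there.

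**Figure D3:**
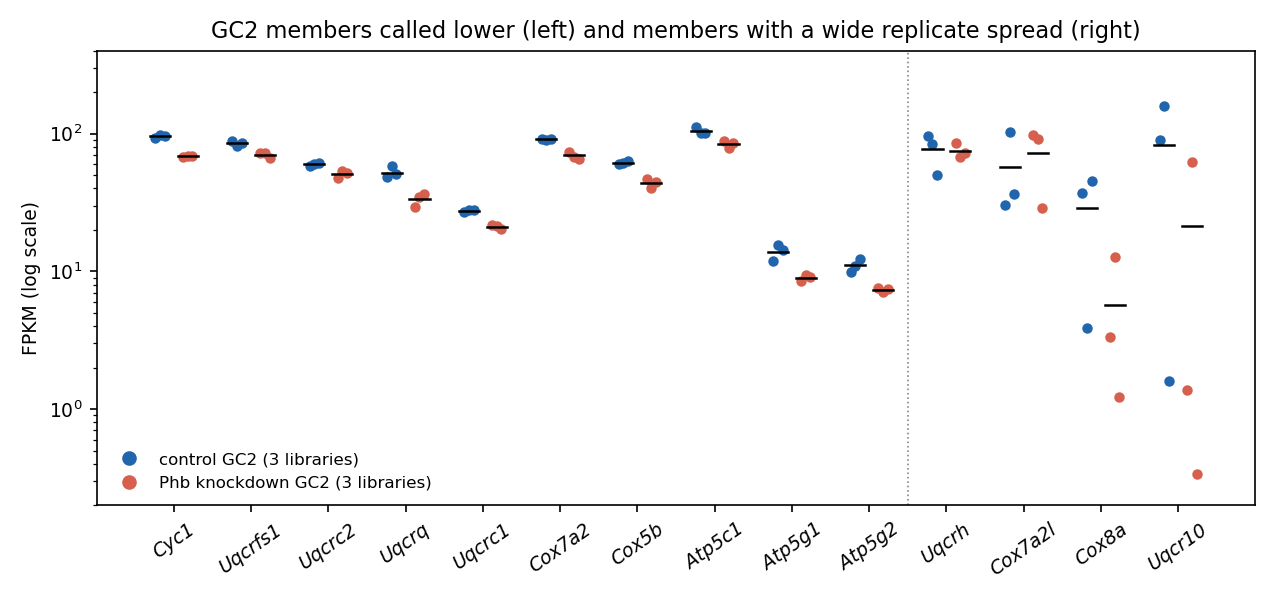
FPKM (log scale) in the 3 control and 3 knockdown GC2 libraries. Left of the dotted line are 10 members called lower, and right of it 4 members with a wider replicate spread. Of these, Uqcrh had a pooled SD of 0.366 (82.7 percentile), below those of Cox7a2l, Cox8a and Uqcr10. Points are libraries and lines are group means. Cyc1 formed 2 narrow bands at 95.7 and 68.4 FPKM, while Uqcr10 ranged from 0.34 to 158.81 FPKM.

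These rows weigh on the summed levels in GC2 cells. Complex III summed to 537 ± 97.9 FPKM in control and 391 ± 35.8 FPKM in knockdown cells, and without Uqcr10 to 454 ± 20.6 and 369 ± 0.877 FPKM, a ratio of 0.81. Complex IV summed to 653 ± 27.4 and 564 ± 43.2 FPKM, and without Cox8a to 624.5 ± 17.7 and 559 ± 47.3 FPKM, a ratio of 0.89. The sums of complex II, 107.2 ± 7.64 and 102.1 ± 5.86 FPKM, overlapped, and those of complex V, 1043 ± 21.5 and 944.7 ± 48.2 FPKM, did not.

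**Figure D4:**
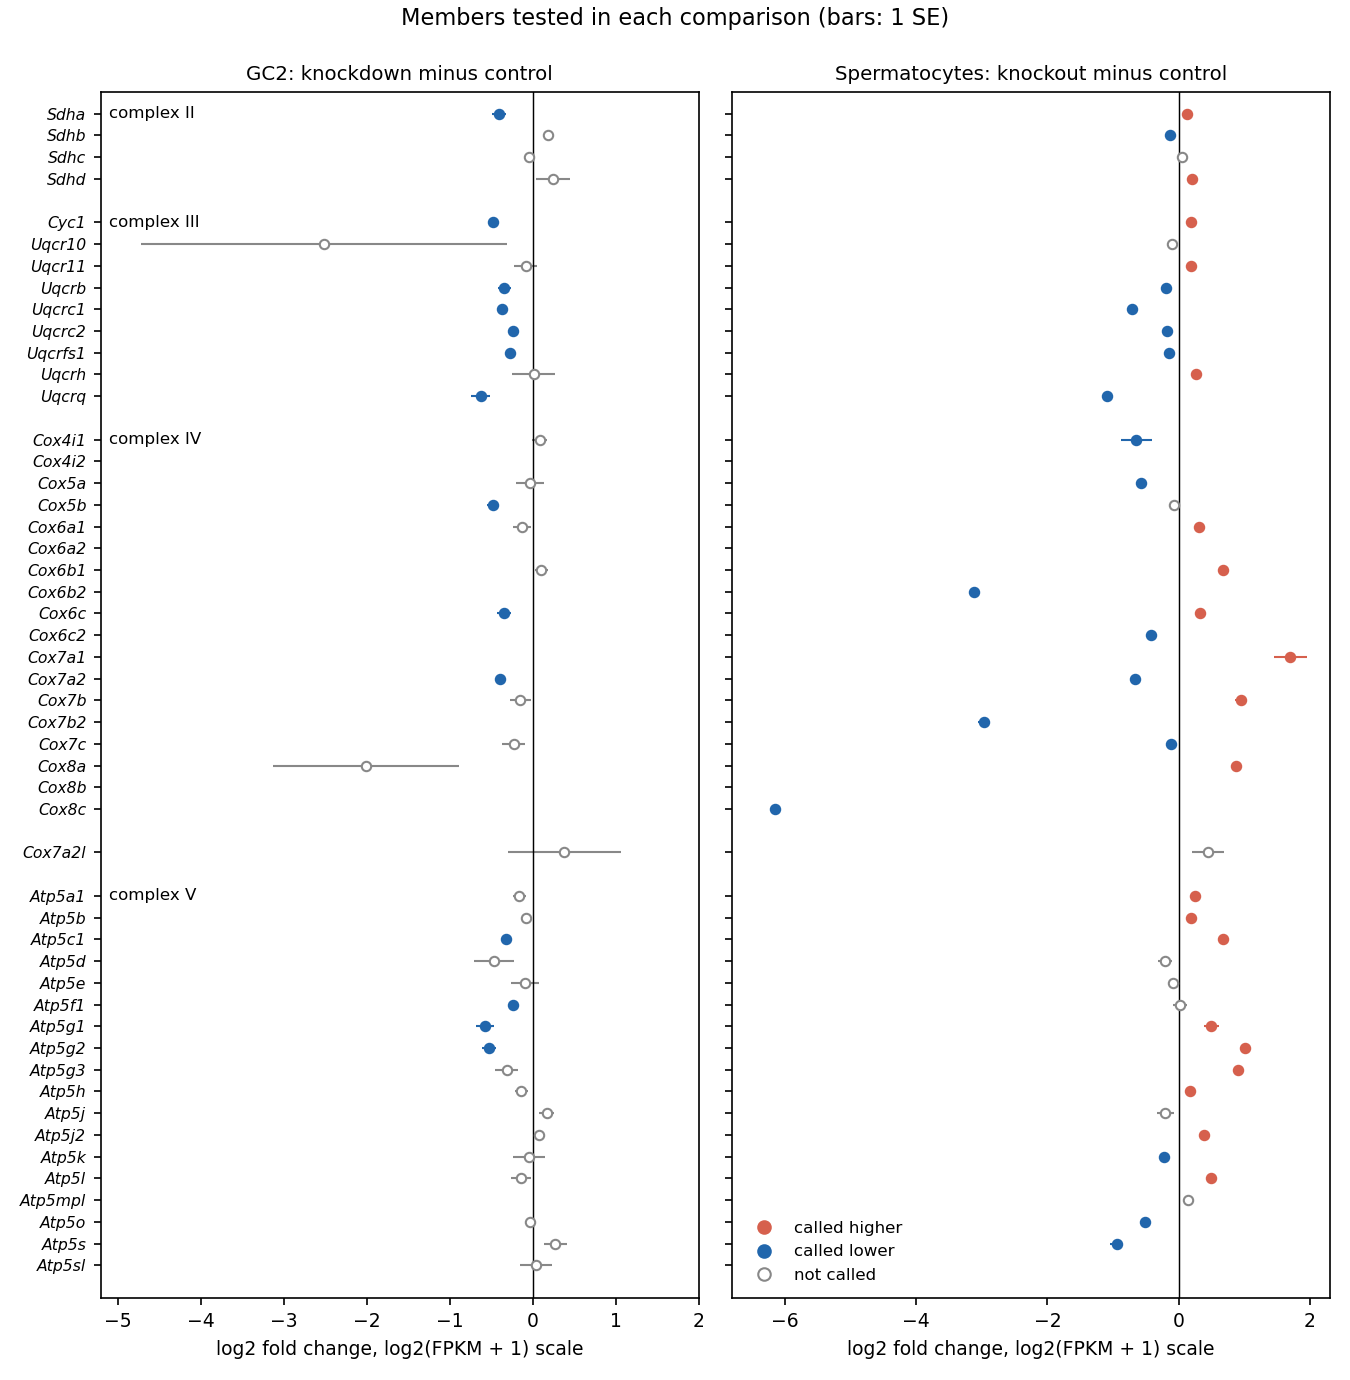
Log2 fold changes on the log2(FPKM + 1) scale of the 41 members tested in GC2 cells (left) and the 46 tested in spermatocytes (right), by complex, with bars of 1 SE. Filled points were called and open points were not. In GC2 cells 14 members were called, all lower, and in spermatocytes 20 were called higher and 17 lower, with Cox8c at -6.15.

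The changes in both kinds of sample were compared for the 35 members whose rows carried the same name in both sets of files. The measure was the difference of both log2 fold changes in 1 limma fit. Kind of sample, level of Phb left (0.368 times control in GC2 cells, 0.871 times in spermatocytes) and shift in cell make-up cannot be told apart in such a difference. The difference was called for 20 members (57.1%), against 60.7% of the 8754 genes tested, so the share was again near that of all genes. The spermatocyte change lay above the GC2 change in 12 members and below it in 8, and in 38.1% and 22.7% of all genes. Among the 14 members that fell in GC2 cells, 6 rose in spermatocytes (Atp5c1, Atp5g1, Atp5g2, Cox6c, Cyc1 and Sdha), 6 fell there too (Cox7a2, Uqcrb, Uqcrc1, Uqcrc2, Uqcrfs1 and Uqcrq) and 2 were not called (Atp5f1 and Cox5b). Of all spermatocyte rows 40.9% were called higher and 38.5% lower, but many of these have no tested row in GC2 cells. Over the 8754 genes tested in both, 3670 were higher and 2196 lower in spermatocytes with all 4 groups in 1 fit. The split among all rows that fell in GC2 cells was not counted, so nothing particular to these members is read from theirs.

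The c subunit genes were among the largest differences. Atp5g3 had a log2 fold change of -0.31 in GC2 cells, where it was not called (limma adjusted p = 0.162), and of 0.90 in spermatocytes. Its difference was 1.21 (SE 0.147, limma adjusted p = 5.64e-05). For Atp5g1 the log2 fold changes were -0.57 and 0.50, a difference of 1.07 (SE 0.168, limma adjusted p = 0.000335). Atp5c1 differed by 0.98 (SE 0.101, limma adjusted p = 1.7e-05). Cox7b differed by 1.096 (limma adjusted p = 0.000372), a call lost when the median of each chromosome was taken off (difference 0.35, adjusted p = 0.115). Atp5s differed most in the other direction, by -1.22 (SE 0.181, limma adjusted p = 0.000234). Cox4i1 differed by -0.73 (limma adjusted p = 0.0407), with a call lost without any 1 of 9 of the 12 libraries (adjusted p 0.0549 to 0.0916), the exceptions being GC2 control replicate 2, spermatocyte control replicate 1 and knockout replicate 1. Atp5g2, Sdha and Uqcrb stood on differently named rows and their differences were not tested.

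Uqcrq and Uqcrc1 of complex III and Cox7a2 of complex IV fell in both kinds of sample and fell further in spermatocytes. The differences were -0.47 for Uqcrq (limma adjusted p = 0.011), -0.35 for Uqcrc1 (limma adjusted p = 0.00158) and -0.29 for Cox7a2 (limma adjusted p = 0.00438). That of Cox7a2 was no longer called under median centring (adjusted p = 0.059).

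**Figure D5:**
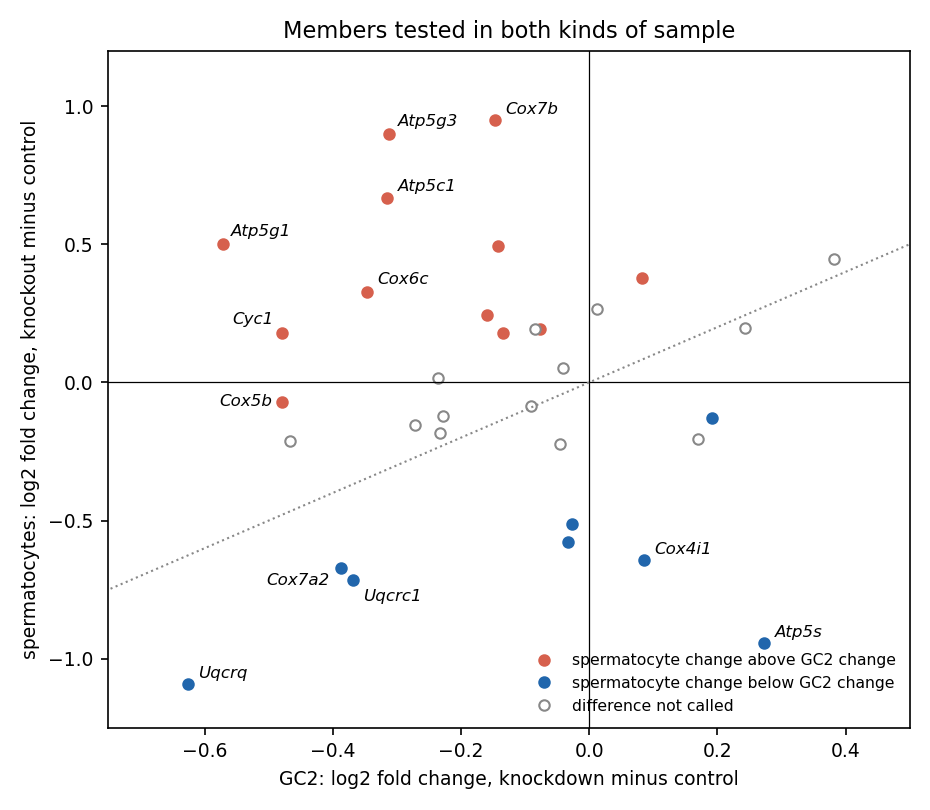
Log2 fold change in spermatocytes (vertical axis) against that in GC2 cells (horizontal axis) for 33 of the 35 members tested in both, with Uqcr10 and Cox8a left out for their wide spread in GC2 cells. Filled points had a called difference, and the dotted line marks equal changes. Atp5g1, Atp5c1, Cox6c and Cyc1 were called lower in GC2 cells and higher in spermatocytes, and Uqcrq, Uqcrc1 and Cox7a2 were called lower in both. Atp5g3 was called higher in spermatocytes and was not called in GC2 cells.

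Genes that build the complexes without being subunits were described from lists. In GC2 cells 6 of 21 tested complex IV assembly factors fell and none was called higher by limma (2 were higher at an unadjusted p under 0.05), where 13.9% of all rows were lower and 10.7% higher. The falls were led by Coa5 (20.9 to 16.05 FPKM, limma adjusted p = 0.00338), Cox10, which makes heme O (9.31 to 7.01 FPKM, limma adjusted p = 0.00643), and Coa3 (16.9 to 13.8 FPKM, limma adjusted p = 0.018). Of 4 genes for assembly and inhibition of complex V, Atpaf1, a chaperone of subunit beta, fell from 2.55, 2.58 and 2.53 FPKM to 1.23, 1.03 and 0.83 FPKM (log2 fold change -0.81, limma adjusted p = 0.00311). None of the 3 tested complex II factors and none of the 5 tested complex III factors was called by limma in GC2 cells. At an unadjusted p under 0.05, 0 of the complex II factors and 3 of the complex III factors, all 3 lower, would have passed.

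In spermatocytes 7 of 22 complex IV assembly factors rose and 7 fell, where 40.9% of all rows rose and 38.5% fell, so the counts say nothing particular about these genes. Sco2, a copper chaperone on a row shared with Tymp, fell from 5.98 to 1.24 FPKM (limma adjusted p = 2.91e-06), and Cox10 fell from 10.99 to 6.81 FPKM (limma adjusted p = 4.52e-05). Cox15, which makes heme A from the product of Cox10, rose from 4.80 to 8.90 FPKM (limma adjusted p = 2.19e-05), and Cmc1 from 3.50 to 9.55 FPKM (limma adjusted p = 2.36e-05). Uqcc2, an assembly factor for cytochrome b of complex III, fell from 150.44, 147.96 and 148.86 FPKM to 56.68, 56.3 and 57.54 FPKM (log2 fold change -1.38, limma adjusted p = 3.52e-08), and Lyrm7, which handles the Rieske protein, was at 1.24 and 0.243 FPKM, though it passed the filter only through its control libraries. In complex II, Sdhaf4 fell from 22.09, 21.21 and 25.07 FPKM to 13.98, 13.46 and 14.57 FPKM and Sdhaf3 rose from 1.23 to 3.14 FPKM.

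Of the other nuclear parts counted with these complexes, Usmg5 of the ATP synthase rose from 13.7 to 22.05 FPKM in spermatocytes (limma adjusted p = 9.13e-06) and Ndufa4, a late subunit of complex IV, from 23.4 to 43.2 FPKM (limma adjusted p = 0.000121). In GC2 cells Ndufa4 was at 112.1 and 90.4 FPKM and was not called.

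The subunits of complexes III to V that the mitochondrial genome encodes were read from the same libraries. In spermatocytes mt-Cytb, cytochrome b of complex III, rose from 4722 to 6672 FPKM (log2 fold change 0.50, limma adjusted p = 9.79e-06) and mt-Co1, the catalytic core of complex IV, from 10243 to 14812 FPKM (log2 fold change 0.53, limma adjusted p = 3.87e-05). mt-Co2 and the joint row of mt-Atp8, mt-Atp6 and mt-Co3 were not called (limma adjusted p = 0.0638 and 0.0626). The nuclear subunits of complex IV other than the testis isoforms summed to nearly equal levels in these groups, as given above. In GC2 files mt-Cytb held 0 to 166.74 FPKM and mt-Co1, on a row shared with mt-Tn, 0 to 5.21 FPKM, levels that were not used to describe these complexes in the line.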

How the data were processed

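The deposited values are FPKM, written with 2 decimals for every gene row of a library. The submitters' processing notes name HISAT2 2.1.0, DESeq and the builds GRCm38 and mm10. No quantifier or annotation is given in the sources used here. GC2 and spermatocyte files hold different sets of rows, so they were fitted apart and no level was compared across them. Members were matched on gene names split at semicolons, since the files give no gene IDs. Rows without a name, 0.750% to 3.93% of an FPKM total, were left out. Positions are from GENCODE M21 on GRCm38.

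Values were tested as log2(FPKM + 1) by limma 3.58.1 (R 4.3.3), using its mean-variance trend and no replicate block. Fold changes on that scale understate the change of low genes. Rows needed 1 FPKM in at least 3 libraries. The difference between both comparisons was an interaction term in 1 fit of all 12 libraries over rows with the same name in both sets. Tests were checked on simulated data with 200 changed genes. Isoform ratios were tested with an exact permutation test on log2 ratios of FPKM + 1.

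Members, gene lists and the rule for named genes were chosen with earlier results of these data known. The rule takes all tissue isoforms and partners, up to 4 called members per complex and direction by adjusted p, the most abundant member of each complex, members called in opposite directions, the 6 largest called differences, up to 3 called genes of each other list, and members on shared rows or below the filter. Members outside the rule are given with their values, chosen after these were seen. The alternatives were other pseudocounts, filters and scalings, removal of mitochondrial rows or of chromosome medians, another limma fit, a replicate block, and leaving out each library.

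Depth is not stated in the files. Steps between low values did not resolve whole reads, with 28.7% to 43.1% of low values within 0.1 of a whole step against 20.0% by chance, so depth is unknown and no interval from counts is given.

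Coding sequences were aligned with Biopython 1.88. Promoters and their positions are RefSeq's on GRCm38.p6. No protein sequence was used here. Figures were made with Python 3.11.15 and matplotlib 3.10.9.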

Additional observations from a re-analysis of the deposited data

Results flagged for a closer look

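For 20 members the change in spermatocytes differed from that in GC2 cells by the interaction term of the limma fit, with adjusted p-values under 0.05. Kind of sample, level of Phb left and shift in cell make-up cannot be told apart in these differences. The spermatocyte change minus the GC2 change, on the log2 scale, was 1.21 for Atp5g3, 1.096 for Cox7b, 1.07 for Atp5g1, 0.98 for Atp5c1, 0.67 for Cox6c, 0.66 for Cyc1, 0.64 for Atp5l, 0.41 for Cox5b, 0.40 for Atp5a1, 0.31 for Atp5h, 0.30 for Atp5j2 and 0.27 for Atp5b. It was -1.22 for Atp5s, -0.73 for Cox4i1, -0.55 for Cox5a, -0.49 for the shared row of Donson and Atp5o, -0.47 for Uqcrq, -0.35 for Uqcrc1, -0.32 for Sdhb and -0.29 for Cox7a2. The median difference was 0.25 over the 35 members tested and 0.22 over all genes tested. The calls of Atp5j2, Cox4i1 and Cox5a were lost when 1 library was left out, 7, 9 and 6 of the 12 libraries having this effect, with adjusted p-values of 0.0547 to 0.0881, 0.0549 to 0.0916 and 0.0567 to 0.0751.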

How the results depend on the processing

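Of the calls, 6 of 14 in GC2 cells, 23 of 37 in spermatocytes and 14 of 20 differences held under every alternative in which the gene was tested. In GC2 cells 1 member was called higher when libraries were rescaled to 1 total, when mitochondrial rows were removed, and with all 4 groups in 1 fit, in place of 0. Members called lower there were 9 with chromosome medians removed, and with a library left out the counts ranged over 0 to 1 higher and 7 to 12 lower. In spermatocytes 10 members were lower under median centring, and 11 were higher and 9 lower with all 4 groups in 1 fit, which tests fewer members. Called differences below 0 numbered 5 under median centring. With a library left out, spermatocyte counts were 18 to 20 higher and 14 to 17 lower, and differences 11 to 13 above and 6 to 8 below. Sdhb in spermatocytes turned to 0.031 under median centring. With mitochondrial rows removed, the ratios of summed FPKM in spermatocytes were 1.13, 0.958, 0.494 and 1.22 for complexes II to V. Where not stated, the cause of a change with the setting was not tested.

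With the replicate number as a block, 12 members were lower in GC2 cells, 20 higher and 15 lower in spermatocytes, and the differences were 14 above and 7 below. The numbers do not pair the samples by the labels. Deviations of same-numbered libraries correlated at 0.124, 0.078 and 0.0607 in GC2, each library best with its own number, and at 0.0074, -0.054 and 0.0074 in spermatocytes.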
